A study of Mus musculus with 15 samples.

Results

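The NF-κB genes followed here were 10: the 5 subunits *Nfkb1*, *Nfkb2*, *Rel*, *Rela* and *Relb*, the 2 feedback inhibitors *Nfkbia* and *Tnfaip3*, and the 3 target genes *Traf1*, *Birc3* and *Tnfaip2*. They were taken by symbol, and each was 1 row of the 20910 genes counted in cultured mouse RPE cells and 1 row of the 25038 genes counted in RPE/choroid. All 10 genes passed the filter of at least 5 counts in at least 3 libraries in both tables.

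NF-κB is a family of transcription factors that work as pairs of subunits. In resting cells the pairs are held in the cytoplasm by inhibitors such as IκBα, the product of *Nfkbia*, and ligands of the TNF and IL-1 families free them by activating the IκB kinase. Several genes switched on by NF-κB act back on it: IκBα returns the pairs to the cytoplasm and A20, the product of *Tnfaip3*, trims the ubiquitin chains that carry the signal. The RPE is the pigmented layer that supports the photoreceptors, and it answers inflammatory cytokines partly through this pathway. The study asked which pathways change in RPE cells that lose *Prom1*, TNF and NF-κB signalling among them, and the gene-level values below bear on that question.

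RNA-seq was run on mRPE cells, an immortalised line made from pooled RPE of C57/BL6J mice with the viral oncogenes E6 and E7. The *Prom1*-KO lines were made by giving a guide to exon 5 of *Prom1* to mRPE cells that carried a Cas9 lentivirus and had passed puromycin selection. A scrambled guide was the control in that editing step, but the sources used here do not say whether the WT cells sequenced had been given it. The mRPE libraries were 4 of WT, 3 of the *Prom1*-KO line KO22 and 2 of the *Prom1*-KO line KO26, and the labels give 1 cell line for each knockout, so libraries of a line are not separate knockout events. The RPE/choroid libraries were 3 from WT mice and 3 from mice labelled *Prom1*-KO, bred from *Prom1* fl/fl and RPE65-Cre mice and gavaged with tamoxifen, so the deletion is aimed at the RPE and the choroidal cells in the sample keep the gene. The methods give 1 age range, of young adults, for the mice of the whole project and none for the floxed line, and whether the WT mice carried Cre or received tamoxifen is not given in the sources used here. Nothing says that libraries of a group came from separate cultures, so p-values for mRPE measure the spread between these samples, which may be technical.

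Total counts were 8076188 to 27537863 per mRPE library and 48154444 to 61766179 per RPE/choroid library. The mRPE libraries carry the batch names 8995 (1 library each of WT, KO22 and KO26) and 9262 (3 WT, 2 KO22 and 1 KO26). Libraries of a group differed more across batches than within batch 9262, with a chi-square per degree of freedom of 42.1 to 79.6 against 4.8 to 11.8. This value also grows with the depth of the libraries. KO26 has 1 library in each batch, so its single pair cannot show which of them stands apart. Only 4 of 15 RPE marker genes (*Best1*, *Mitf*, *Pmel* and *Rdh5*) are in the mRPE table. Their summed level was 11.8 to 17.4 CPM in WT, 17.3 to 39.9 CPM in KO22 and 8.17 to 12.6 CPM in KO26. The RPE identity of these cells is thus not borne out by its defining markers. The summed level of 7 fibroblast markers, 6 of them in the table, was 13150 to 17800 CPM in WT, 5676 to 8788 in KO22 and 20260 to 22100 in KO26, while 0 of 9 lymphocyte markers and 4 of 14 leukocyte markers were in the table. That of 10 endothelial markers, 7 of them in the table, was 219 to 273 CPM in WT, 81.8 to 98.0 in KO22 and 124 to 125 in KO26, and most of the WT level was *Kdr*, a VEGF receptor, at 151 to 235 CPM in WT, 0.35 to 3.72 CPM in KO22 and 55.3 to 72.3 CPM in KO26. In KO22 against WT, 4 of 6 fibroblast and 3 of 7 endothelial markers were called lower and 1 endothelial marker higher. Of 7 photoreceptor markers 2 were called lower and 1 higher, and of 4 RPE markers 0 lower and 1 higher. Of all genes tested, 13.8% were called lower and 11.4% higher. The part of these lists in the members' values was not tested. In RPE/choroid, *Prom1* itself stood at 48.7, 49.6 and 53.3 CPM in WT and at 49.9, 48.1 and 35.5 CPM in the libraries labelled *Prom1*-KO (log2 fold change -0.18, SE 0.158, edgeR adjusted p = 0.824), so the label is not borne out by this gene. *Prom1* is not in the mRPE table, which covers the WT libraries too, so the knockout could not be checked in any KO22 or KO26 library. Which library is which line rests on the labels. For both knockout lines the paper reports a check of genomic DNA, loss of Prom1 protein by Western blot and less *Prom1* transcript by qPCR. Replicate 3 of the libraries labelled *Prom1*-KO held 84.2% mitochondrial counts, against 64.9% to 71.3% in the other RPE/choroid libraries.

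The κB site, the sequence of 10 bases that NF-κB pairs bind, was looked for in RefSeq promoters (GRCm38.p6, 250 bases before to 50 after a start) to show which members carry a letter-perfect match. Entries were found for 8 of the 10 genes, the others being *Nfkb1* and *Relb*. The consensus, read on both strands, occurred in the promoter of 5 of these 8 genes (*Nfkb2*, *Rel*, *Nfkbia*, *Tnfaip3* and *Tnfaip2*) and in that of 2581 of all 27025 genes with an entry (9.6%), counting a gene once if any of its promoters matched. Each site is given with 10 bases on either side and the match in capitals (overlapping matches run together), on the strand of the gene, and the distance is that of the first capital from the start.
*Nfkbia*, 29 bases before (chr12:55492657-55492686, minus): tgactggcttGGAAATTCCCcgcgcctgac
*Tnfaip3*, 12 bases before (chr10:19015403-19015432, minus): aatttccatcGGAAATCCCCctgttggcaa
*Tnfaip3*, 125 bases before (chr10:19015516-19015545, minus): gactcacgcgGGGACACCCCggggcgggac
*Rel*, 92 bases before (chr11:23771041-23771071, minus): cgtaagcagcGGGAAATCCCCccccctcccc
*Nfkb2*, 39 bases before (chr19:46304688-46304718, plus): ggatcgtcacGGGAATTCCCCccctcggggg
*Nfkb2*, 11 bases before (chr19:46304716-46304745, plus): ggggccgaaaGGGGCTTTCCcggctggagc
*Nfkb2*, alternative start, 236 bases before (chr19:46305449-46305478, plus): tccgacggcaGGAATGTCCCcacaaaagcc
*Nfkb2*, another start, 225 bases before (chr19:46305695-46305724, plus): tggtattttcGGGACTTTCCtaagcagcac
*Tnfaip2*, 24 bases before (chr12:111442627-111442656, plus): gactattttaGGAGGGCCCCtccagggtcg

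The promoters of *Traf1*, *Birc3* and *Rela* held no match to the consensus in this window. That of *Traf1*, the member with the largest change in KO22, is given for its 250 bases before the start (chr2:34961773-34962022, minus strand); a missing match says only that these letters are not in this window.
*Traf1*: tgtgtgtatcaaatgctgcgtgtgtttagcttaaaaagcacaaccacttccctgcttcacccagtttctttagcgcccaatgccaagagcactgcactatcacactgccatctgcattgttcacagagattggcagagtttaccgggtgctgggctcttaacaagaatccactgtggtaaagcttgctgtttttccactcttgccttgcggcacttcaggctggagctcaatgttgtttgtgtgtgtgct

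In WT mRPE the inhibitor *Nfkbia* had the highest level per length of the 10 genes, 19.4 ± 3.87 CPM per kilobase of exon (SD, n = 4), followed by the target *Tnfaip2* at 15.4 ± 2.96 and the subunit *Nfkb1* at 10.1 ± 1.47. *Rela* followed at 7.48 ± 0.579, *Birc3* at 6.36 ± 1.71, *Rel* at 5.29 ± 0.268 and *Tnfaip3* at 4.96 ± 1.31 CPM per kilobase. The 2 subunits of the non-canonical arm were lower, *Nfkb2* at 2.72 ± 0.356 and *Relb* at 2.25 ± 0.587, and *Traf1* was lowest at 0.25 ± 0.138 CPM per kilobase. Ranges over the 4 libraries overlapped between every pair of neighbours in this order except *Tnfaip2* with *Nfkb1* and *Relb* with *Traf1*. These lengths count every annotated exon base, so a gene with many alternative exons reads low.

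KO22 was compared with WT in the 7 libraries that the study kept. Both *Prom1*-KO libraries that it removed as outliers were of KO26, so the knockout side of its differential expression was KO22 alone. A gene was called at an adjusted p under 0.05 (edgeR's quasi-likelihood test over all genes, Benjamini-Hochberg) and an absolute log2 fold change over 1.2. Of the 10 members 1 was called, *Traf1*, which rose, and 0 were called lower, while 25.2% of all 20455 genes tested were called, 11.4% higher and 13.8% lower. By the adjusted p alone, 3 of 10 members passed, *Nfkb1* and *Traf1* higher and *Nfkbia* lower, against 53% of all genes. The median log2 fold change of the members was 0.14, beside -0.03 over all genes.

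Among the subunits, *Nfkb1* (chr3:135290264-135397742 on GRCm39), which encodes p105 and its product p50, stood at 101, 140, 139 and 138 CPM in WT and at 290, 215 and 197 CPM in KO22. All 3 KO22 libraries lay above all 4 WT libraries, and the KO22 library of batch 8995 was the highest. The log2 fold change was 0.85 (SE 0.174, 95% CI 0.46 to 1.24, edgeR adjusted p = 0.00271), a 1.80-fold difference that lies under the fold limit. The size differed between batches: the log2 difference was 1.52 within batch 8995 (1 library each) and 0.57 within batch 9262 (2 against 3). Without the WT library of batch 8995 the log2 fold change was 0.56 (edgeR adjusted p = 1.49e-05).

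*Rel* (chr11:23686847-23721264), which encodes the subunit c-*Rel*, stood at 38.9 to 43.8 CPM in WT and at 64.6, 45.0 and 46.6 CPM in KO22, with no overlap and most of the distance in the library of batch 8995. Its log2 fold change of 0.30 (95% CI 0.02 to 0.59) had an edgeR adjusted p of 0.068. *Rela* (chr19:5687493-5698161), the subunit p65 that carries the transactivation domain of the commonest pair, stood at 22.4 to 26.5 CPM in WT and 22.7 to 25.8 CPM in KO22. The groups overlapped, and the 95% interval of its log2 fold change was -0.33 to 0.23.

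The subunits of the non-canonical arm overlapped between groups as well. *Nfkb2* (chr19:46292759-46303812), which encodes p100 and p52, had a log2 fold change of 0.26 (95% CI -0.07 to 0.59), at 18.2 to 25.0 CPM in WT and 16.6, 29.0 and 31.3 CPM in KO22. *Relb* (chr7:19339017-19363425), the partner of p52, had a log2 fold change of 0.05 (95% CI -0.33 to 0.42). The low KO22 value of *Nfkb2* was the library of batch 8995, and without the WT library of that batch its log2 fold change was 0.40 (edgeR adjusted p = 0.00375).

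Of the inhibitors, *Nfkbia* (chr12:55535332-55539432), which encodes IκBα, stood at 26.3, 40.4, 42.2 and 41.1 CPM in WT and at 24.5, 21.1 and 17.9 CPM in KO22. All KO22 libraries lay below all WT libraries, but the WT library of batch 8995 lay close to the KO22 library of its own batch. The log2 fold change was -0.79 (SE 0.191, 95% CI -1.22 to -0.36, edgeR adjusted p = 0.00665), 0.579-fold and inside the fold limit. Within batch 8995 the log2 difference was -0.10 and within batch 9262 it was -1.06; without the WT library of batch 8995 it was -1.08 (edgeR adjusted p = 1.52e-08).

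*Tnfaip3* (chr10:18874201-18891405), which encodes the ubiquitin-editing enzyme A20, stood at 29.1, 55.1, 54.4 and 54.1 CPM in WT and at 41.3, 50.2 and 34.3 CPM in KO22. The WT library of batch 8995 was the lowest of the 7, and the groups overlapped. The log2 fold change was -0.11 (95% CI -0.54 to 0.32), and it turned sign between batches, from 0.50 within batch 8995 to -0.39 within batch 9262. Without the WT library of batch 8995 it was -0.37 (edgeR adjusted p = 0.00968).

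Of the target genes, *Traf1* (chr2:34831762-34851837), an adaptor that binds TRAF2 and the cIAP proteins at TNF receptors, stood at 0.795, 1.78, 2.65 and 3.66 CPM in WT, from 20 to 51 counts. In KO22 it stood at 10.9, 22.8 and 20.3 CPM, from 126 to 473 counts. Every KO22 library was above every WT library, and in both groups the library of batch 8995 was the lowest. The log2 fold change was 3.19 (SE 0.255, 95% CI 2.61 to 3.76, edgeR adjusted p = 1.15e-05), a 9.11-fold rise, and 4.61% of all genes tested had a change at least as large in either direction. The log2 difference was 3.14 within batch 8995 and 2.83 within batch 9262.

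An antisense gene, *Gm13449*, overlaps *Traf1* and had 7 to 12 counts in KO22 and 0 to 1 in WT, far fewer than *Traf1*. By Pearson's r of log2 CPM over the 9 mRPE libraries, the genes whose levels were most like those of *Traf1* were *Shank2* (0.988), *Prl2c5* (0.983) and *Gm2099* (0.982). These points share their libraries and the difference between KO22 and the rest, so the likeness is a description only.

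The other targets overlapped between groups. *Birc3* (chr9:7845790-7873229), which encodes the ubiquitin ligase cIAP2, had a log2 fold change of 0.23 (95% CI -0.11 to 0.58), at 33.3 to 65.1 CPM in WT and 54.7 to 71.2 CPM in KO22. *Tnfaip2* (chr12:111408858-111421452), a TNF-induced gene of membrane tube formation, had a log2 fold change of -0.09 (95% CI -0.31 to 0.13). In all, 4 of 10 members did not overlap between KO22 and WT (*Nfkb1*, *Rel* and *Traf1* higher, *Nfkbia* lower), against 50.1% of all genes.

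**Figure D1:**
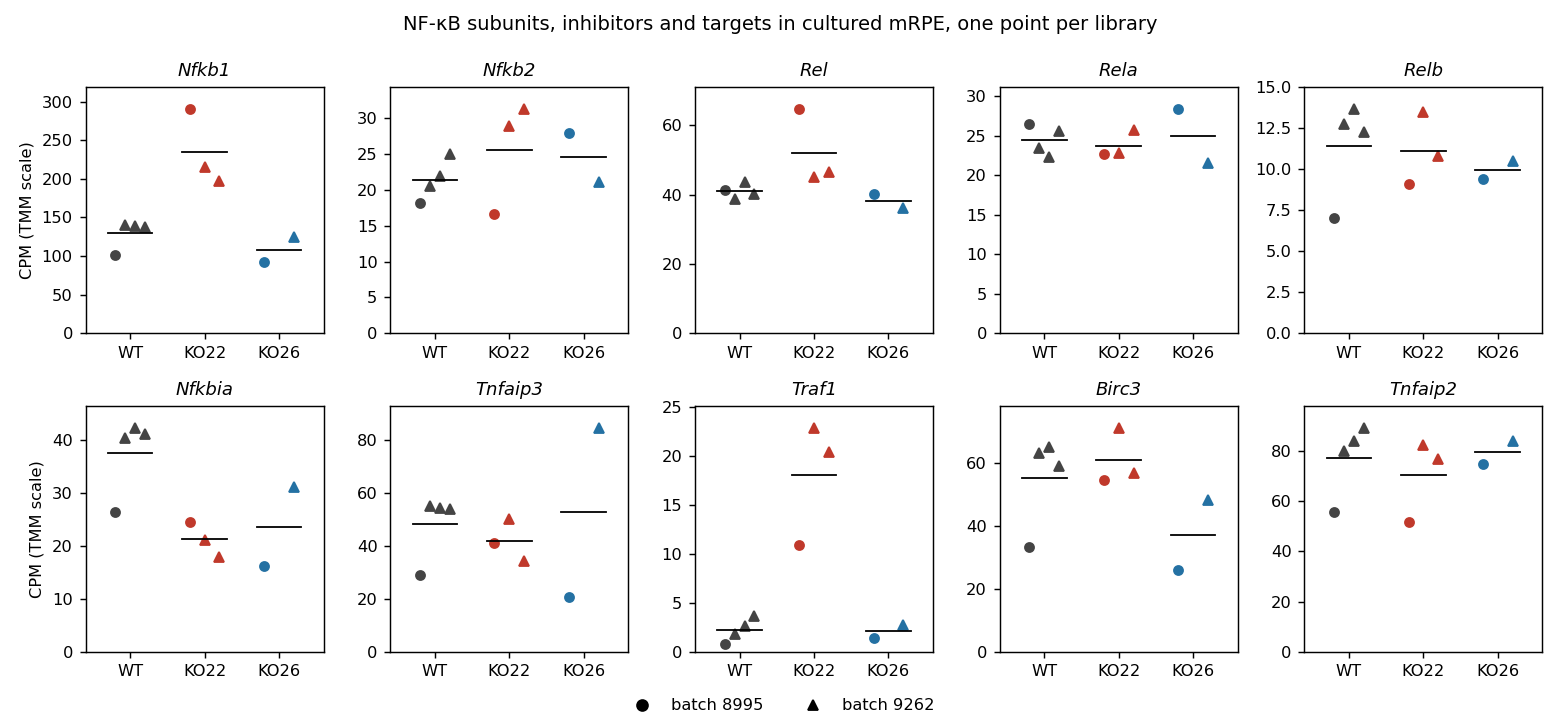
Level of each gene in CPM (linear axis from 0, scaled by TMM) in every mRPE library, for WT (n = 4), KO22 (n = 3) and KO26 (n = 2); circles are batch 8995, triangles batch 9262 and bars the group mean. The 3 KO22 points of *Traf1* sit between 10.9 and 22.8 CPM, above every WT and KO26 point, and the circle is the lowest WT point for 8 of the 10 genes.

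Genes of some chromosomes leaned one way between KO22 and WT, so the median log2 fold change of all tested genes on each member's chromosome is given beside the member. It was -0.50 over 776 genes on chromosome 12, which holds *Nfkbia* and *Tnfaip2*, and -0.54 over 968 genes on chromosome 10, which holds *Tnfaip3*. On chromosome 3, which holds *Nfkb1*, it was 0.11, and on chromosome 2, which holds *Traf1*, it was 0.14. *Nfkb2* and *Rela* lie on chromosome 19 with a median of -0.42, and *Relb* on chromosome 7 with -0.32. The intervals of *Nfkbia*, *Relb* and *Birc3* included the median of their chromosome, that of *Tnfaip3* ended at it, and those of the other 6 members lay above theirs. The part of these chromosome-wide values in the members' results was not tested.

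**Figure D2:**
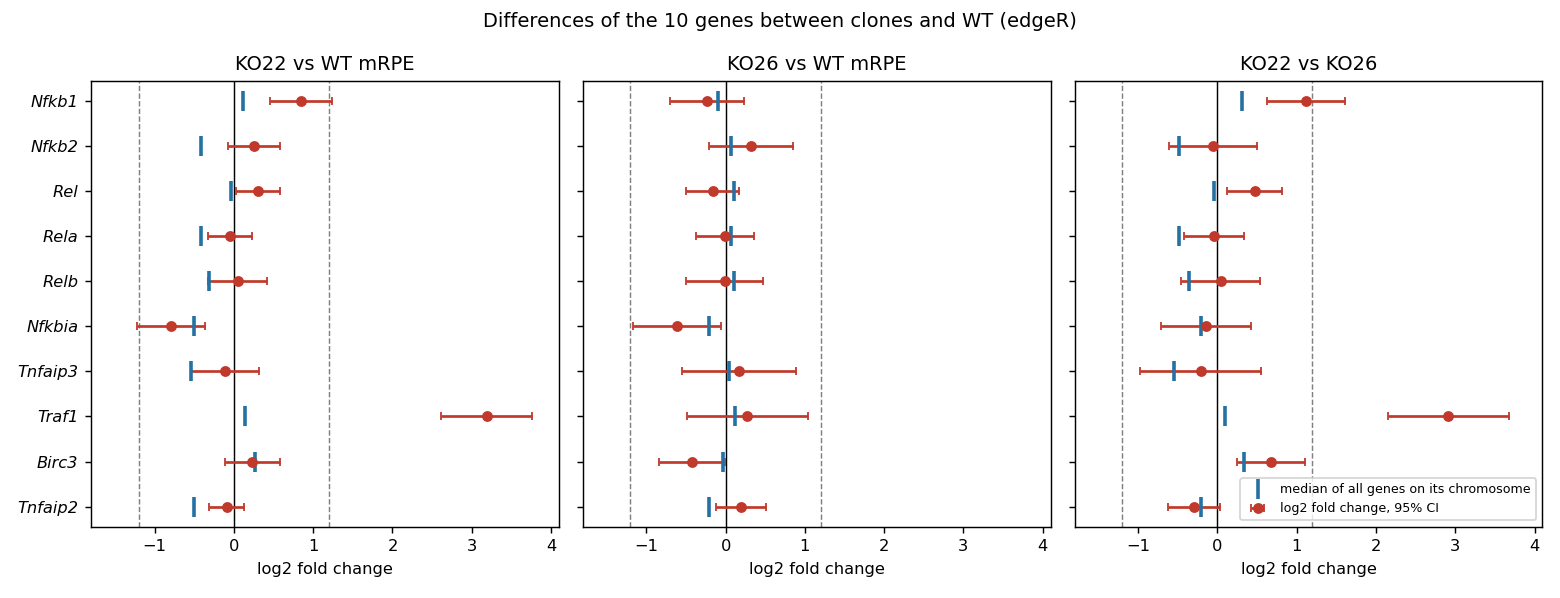
Log2 fold change with its 95% confidence interval (edgeR) for each gene in KO22 against WT, KO26 against WT and KO22 against KO26; blue ticks are the median of all tested genes on the same chromosome and dashed lines the fold limit of 1.2. *Traf1* lies past the limit at 3.19 and 2.91 in the comparisons with KO22 and at 0.27 in KO26 against WT.

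In the second *Prom1*-KO line, KO26, 0 of the 10 members were called against WT by edgeR in the fit over all 9 mRPE libraries, where 1.92% of 20737 genes were called. By the adjusted p alone 0 members passed, against 3.5% of all genes, and 0 were called by DESeq2; 2 had an unadjusted p under 0.05, *Nfkbia* and *Birc3*, against 20.1% of all genes. The groups overlapped for all 10 members, whereas 24.7% of all genes did not overlap. The median of the members was -0.01, beside 0.03 over all genes.

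*Traf1* stood at 1.39 and 2.78 CPM in KO26, within the WT range (log2 fold change 0.27, 95% CI -0.49 to 1.04). *Nfkb1* was at 91.8 and 124 CPM (log2 fold change -0.24, 95% CI -0.70 to 0.23). *Nfkbia* was at 16.2 and 31.0 CPM (log2 fold change -0.61, 95% CI -1.16 to -0.06, edgeR adjusted p = 0.208), with differences of -0.68 and -0.41 within batches 8995 and 9262. With the WT and KO26 libraries alone, *Nfkbia* and *Birc3* passed the adjusted p (edgeR adjusted p = 0.0084 and 0.0325), at log2 fold changes of -0.55 and -0.39. That fit called more of all genes as well, 818 against 399 in the fit over 9 libraries. Its share of all genes by the adjusted p alone is not given, so these passes cannot be set apart from the choice of fit. The KO26 library of batch 8995 held the lower *Nfkbia* and *Traf1* values of the pair.

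*Tnfaip3* differed most between the 2 KO26 libraries, at 20.7 CPM in batch 8995 and 84.7 CPM in batch 9262, the lowest and highest of all 9 mRPE libraries. Its log2 fold change against WT was 0.17 (95% CI -0.54 to 0.89), which comes from -0.48 within batch 8995 and 0.63 within batch 9262. The 2 libraries thus lay on opposite sides of the WT range for this gene.

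The knockout lines were compared directly, since a call in one line and not in the other does not show a difference between them. *Traf1* was the 1 member called, higher in KO22 by 2.91 on the log2 scale (SE 0.345, edgeR adjusted p = 0.000148), against 18.3% of all genes. By the adjusted p alone, 4 members were higher in KO22 and 0 lower, against 34.4% of all genes. These were *Traf1*, *Nfkb1* at 1.12 (SE 0.223, edgeR adjusted p = 0.00327), *Birc3* at 0.68 (SE 0.194, edgeR adjusted p = 0.0208) and *Rel* at 0.47 (SE 0.158, edgeR adjusted p = 0.0399). *Traf1* and *Nfkb1* passed in all 17 alternatives to this fit, *Birc3* in 14 and *Rel* in 6. *Birc3* did not pass without the batch term (edgeR adjusted p = 0.128), without the KO26 library of batch 8995 (0.141) or with the KO22 and KO26 libraries alone. *Rel* did not pass with scaling by library size alone (edgeR adjusted p = 0.0632) or in batch 9262 alone (0.0585), nor in 9 other alternatives, so its difference rests on the choice of fit. All 3 KO22 libraries lay above both KO26 libraries for these 4 genes, against 23.3% of all genes higher in this way and 47.9% not overlapping in either direction. *Nfkbia* differed by -0.14 (95% CI -0.71 to 0.43), and its direction turned between batches, as did those of *Tnfaip3*, *Nfkb2*, *Rela* and *Relb*.

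The members were also compared between the batches, a comparison added after the values had been seen and taken from the batch term of the 9-library fit. *Traf1* was the 1 member called, higher in batch 9262 by 1.22 on the log2 scale (SE 0.266, 95% CI 0.63 to 1.81, edgeR adjusted p = 0.0226), against 2.58% of all genes. By the adjusted p alone 3 passed, all higher in batch 9262, against 8.82% of all genes: *Traf1*, *Birc3* at 0.65 (SE 0.154, edgeR adjusted p = 0.0287) and *Tnfaip2* at 0.49 (SE 0.118, edgeR adjusted p = 0.0306). *Tnfaip3* at 0.87 (95% CI 0.24 to 1.49, adjusted p = 0.0809) and *Relb* at 0.53 (95% CI 0.13 to 0.93, adjusted p = 0.0934) did not pass in edgeR and passed in DESeq2 (adjusted p = 0.0359 and 0.0344).

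The subunits *Nfkb1*, *Rel* and *Rela* stood at 0.10, -0.22 and -0.13, and their intervals included 0, as did those of *Nfkb2* and *Nfkbia*. *Relb* and *Tnfaip2* did not overlap between the 3 libraries of batch 8995 and the 6 of batch 9262, against 5.2% of all genes. The calls rest on few libraries: without the WT library of batch 8995, 0 members were called, and the same held without WT replicate 3, WT replicate 4 or KO22 replicate 2. Scaling by library size alone moved the median of all genes from 0.03 to 0.20 and the calls over all genes from 397 higher and 137 lower to 686 and 87. The paper reports that samples clustered by sequencing batch before correction. What else the batches differed in is not given in the sources used here.

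**Figure D3:**
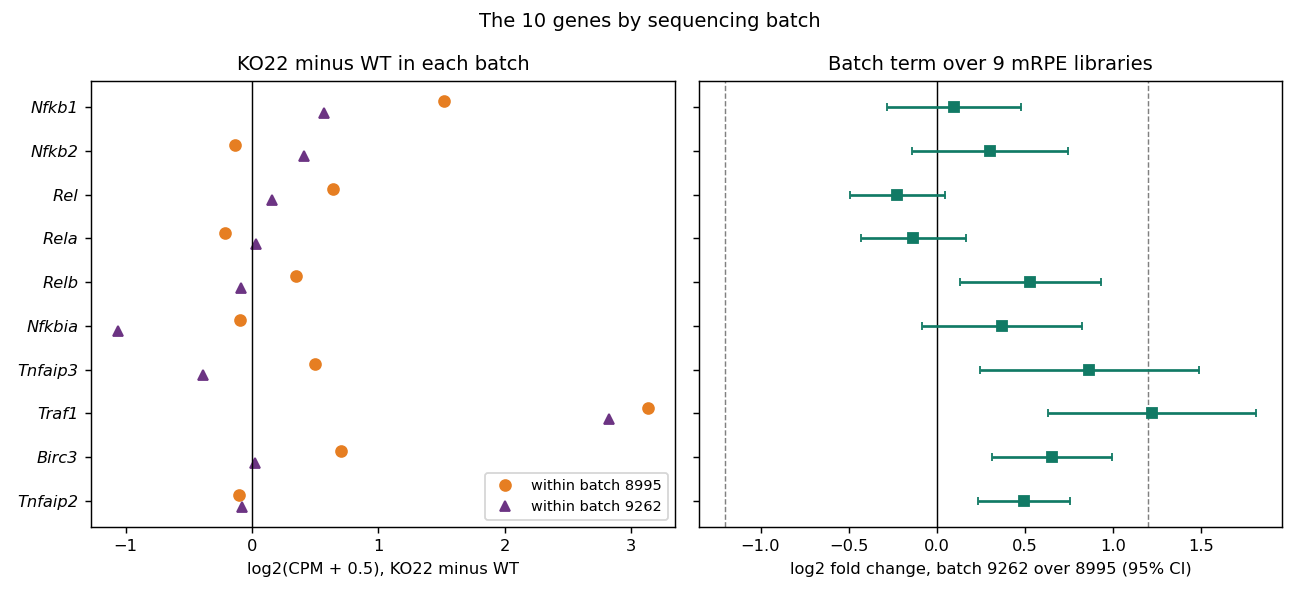
Left, difference of KO22 and WT in mean log2(CPM + 0.5) within batch 8995 (circles, 1 against 1 library) and batch 9262 (triangles, 2 against 3); right, log2 fold change of batch 9262 over 8995 with its 95% confidence interval from the fit over 9 libraries. *Traf1* is at 3.14 and 2.83 on the left, *Nfkbia* at -0.10 and -1.06, and *Traf1* is the highest on the right at 1.22.

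Beside the members, 6 lists of other NF-κB pathway genes were described, 116 genes in all. In KO22 against WT, 101 were tested, 21 were called higher and 6 lower, against the 11.4% higher and 13.8% lower of all genes, with a median log2 fold change of 0.34 beside -0.03 over all genes. DESeq2 also called 21 higher and 6 lower. The genes called higher include *Il1a* and *Il33*, which passed the count filter in this comparison only through the KO22 libraries. In KO26 against WT, 3 of 102 were called higher (*Mmp9*, *Tap1* and *Psmb9*) and 1 lower (*Tnfrsf11a*), with a median of -0.03, against 1.21% higher and 0.719% lower of all genes. DESeq2 called 5 higher and 1 lower there, where it called 3.03% of all genes. In KO22 against KO26, 22 of 102 were called higher and 6 lower, against 7.56% higher and 10.7% lower of all genes.

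The lists are given by role for KO22 against WT, to be read against the same 11.4% higher and 13.8% lower of all genes. Of 31 kinases and adaptors, 0 were called higher and 2 lower, and of 17 other inhibitors 2 were called higher and 1 lower. Of 12 receptors 4 were called higher and 1 lower, and of 6 ligands 3 and 2. The ligands called higher include *Il1a* and *Il33*, which passed the count filter only through the KO22 libraries, so the ligand count is no separate support. The ligand *Tnfsf11* (4.17, SE 0.65) and the receptor *Cd40* (7.25, SE 1.04) were also called higher, and their counts in WT are not given. Of 19 secreted and surface targets 9 were called higher and 0 lower, with a median of 1.06, and of 16 intracellular targets 3 and 0, with a median of 0.69.

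In the core, *Map3k8*, the kinase TPL2 that p105 holds inactive, stood at 38.1 to 70.6 CPM in WT and 5.70 to 7.62 CPM in KO22 and fell by 3.06 on the log2 scale (edgeR adjusted p = 6.27e-07). *Btrc*, the F-box protein that marks phosphorylated IκB for breakdown, fell by 1.35 (edgeR adjusted p = 1.12e-05). Among the other inhibitors *Pdlim2*, a nuclear ubiquitin ligase for p65, fell by 2.35 (edgeR adjusted p = 5.66e-06), with 41.2 to 66.8 CPM in WT and 9.16 to 10.5 CPM in KO22. *Rnf11*, a partner of A20, rose by 1.68 (edgeR adjusted p = 5.48e-06), and *Nkrf*, a nuclear repressor, by 1.37 (edgeR adjusted p = 0.00043). The KO26 libraries stood at 14.4 and 66.2 CPM for *Map3k8* and at 31.2 and 70.8 CPM for *Pdlim2*.

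Upstream, the IL-1 family ligand *Il1a* was at 0 to 0.287 CPM in WT and 2.72 to 7.34 CPM in KO22 (log2 fold change 5.45, SE 0.637, edgeR adjusted p = 9.96e-05). *Il33* was the other ligand named by the rule on the higher side, at 9.39. With 0 to 4 counts per WT library for *Il1a* and 2 to 11 for *Il33*, both passed the count filter only through the KO22 libraries. Their calls therefore describe the level in KO22 and are no separate support. The receptor chains *Il1rap* and *Il1rl1* were higher by 1.69 and 3.27. *Il18* and *Tnfsf12* were lower by log2 fold changes of -1.81 and -1.27 (edgeR adjusted p = 0.00499 and 0.0045), and the receptor *Tnfrsf11a* by -1.30, at 1.28 to 3.74 CPM in WT and 0.698 to 1.12 CPM in KO22. *Tnfrsf11a* and *Tnfsf12* lost the call without 1 of the libraries, as given in the closing section.

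Among the targets, the chemokine *Ccl5* stood at 1.03 to 7.11 CPM in WT, at 22.4, 71.8 and 78.0 CPM in KO22 and at 5.29 and 8.21 CPM in KO26 (KO22 against WT 3.80, edgeR adjusted p = 9.34e-07). Like *Traf1*, it was lowest in batch 8995 in each group. The adhesion molecule *Icam1* rose by 3.81 (edgeR adjusted p = 2.93e-05), with 0.278 to 2.26 CPM in WT and 10.9 to 17.6 CPM in KO22. The cyclooxygenase gene *Ptgs2* rose by 2.11 (edgeR adjusted p = 0.00081) with 1567 CPM in the KO22 library of batch 8995 and 423 and 464 CPM in the others, and *Tnfaip8*, a regulator of cell death, rose by 1.96 (edgeR adjusted p = 2.28e-06).

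**Figure D4:**
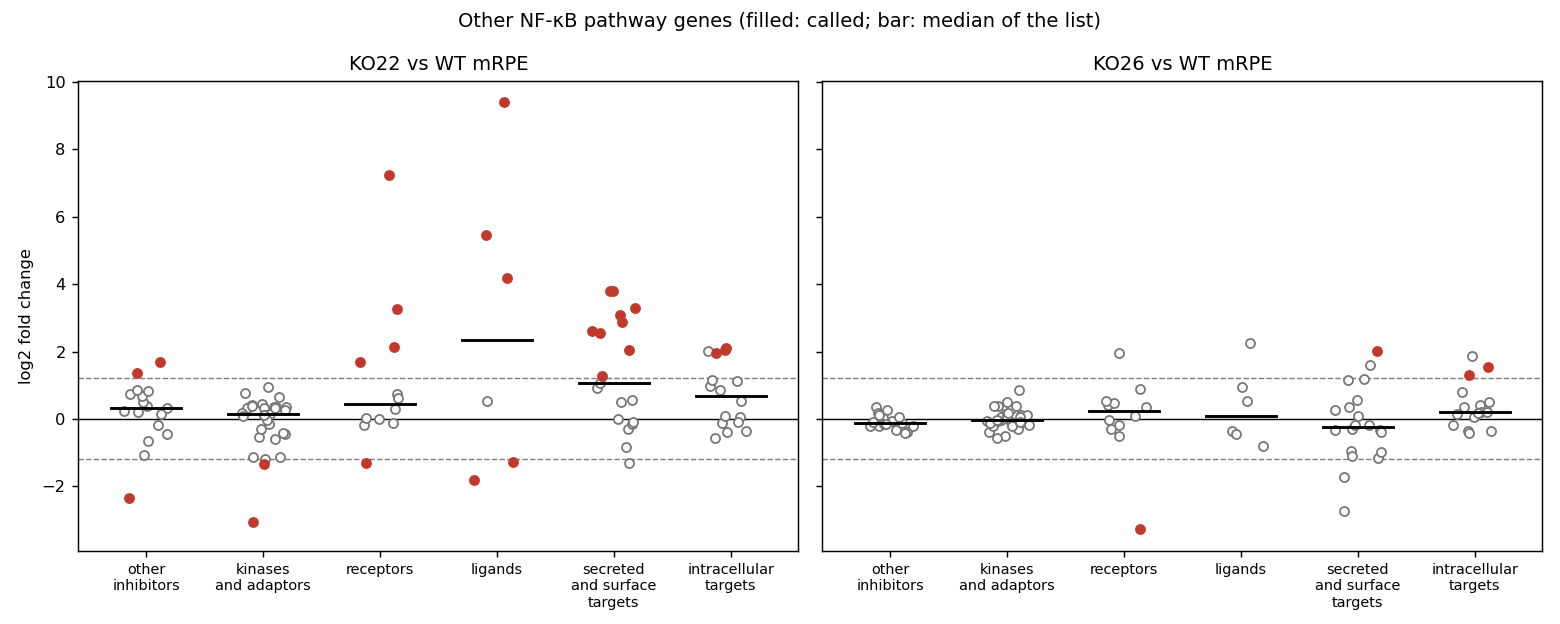
Log2 fold change of each tested gene of the 6 pathway lists in KO22 against WT (101 genes) and KO26 against WT (102 genes); filled points were called, open points were not, bars are the list medians and dashed lines the fold limit of 1.2. Filled points are 21 above and 6 below 0 on the left, and 3 above and 1 below on the right.

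In RPE/choroid the question was whether the members differed between WT mice and mice labelled *Prom1*-KO. Of the 10 members 0 were called by edgeR, where 0.189% of 24926 genes were called. By the adjusted p alone 0 passed, against 0.193% of all genes, and 2 had an unadjusted p under 0.05, *Tnfaip2* and *Relb*, against 8.3% of all genes. DESeq2 called 0 members, and *Tnfaip2* passed its adjusted p alone (adjusted p = 0.00889). The median of the members was -0.24, beside 0.01 over all genes.

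*Tnfaip2* stood at 6.12, 8.29 and 6.85 CPM in WT and at 4.19, 3.10 and 4.08 CPM in the libraries labelled *Prom1*-KO, with no overlap. Its log2 fold change was -0.90 (SE 0.187, 95% CI -1.34 to -0.47, edgeR adjusted p = 0.185), and without the library of 84.2% mitochondrial counts it was -0.97 (edgeR adjusted p = 0.259). *Relb* stood at 1.77, 2.05 and 1.14 CPM in WT and at 1.07, 0.98 and 1.03 CPM in the others (log2 fold change -0.69, 95% CI -1.33 to -0.04, edgeR adjusted p = 0.573). These 2 of 10 members did not overlap between groups, against 14.6% of all genes.

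The remaining members overlapped between the groups. *Nfkb1*, at 15.4 to 20.3 CPM in WT and 18.4 to 19.0 CPM in the libraries labelled *Prom1*-KO, had the narrowest interval, a log2 fold change of 0.01 (95% CI -0.32 to 0.34). *Nfkbia* stood at 0.29 (95% CI -0.20 to 0.77) and *Rel* at 0.20 (95% CI -0.22 to 0.63). *Rela* was at -0.28, *Nfkb2* at -0.41 and *Birc3* at -0.11, each with an interval that included 0. *Traf1*, from 34 to 119 counts, was at -0.21 (95% CI -0.94 to 0.53). This bulk value cannot be set against the rise in KO22 cells, since choroidal cells keep *Prom1* and its level did not bear out the label. *Tnfaip3* had the widest interval (-1.52 to 0.84), with 10.3 CPM in 1 WT library and 3.13 and 3.77 CPM in the other two.

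Marker genes of the cell types in this tissue were compared between the groups as well. The summed level of 15 RPE markers was 2673 to 3646 CPM in WT and 1297 to 1481 CPM in the libraries labelled *Prom1*-KO, with 4 of 15 called lower (*Rpe65*, *Rgr*, *Lrat* and *Rdh5*). The list did not move as one: 7 of the 15 lay lower in all 3 libraries labelled *Prom1*-KO, 7 overlapped, the pigment genes *Tyr*, *Tyrp1* and *Pmel* among them, and *Dct*, also a pigment gene, was at 315 to 545 CPM in WT and 570 to 618 CPM in the others. The summed level of 10 endothelial markers was 142 to 271 against 99.5 to 124 CPM, and that of 14 macrophage and other leukocyte markers 333 to 413 against 297 to 390 CPM. Much of the leukocyte sum was *Lyz2*, at 181 to 233 CPM in WT and 139 to 210 CPM in the others. Of these 14 markers, 4 lay higher in all 3 libraries labelled *Prom1*-KO, 2 lay lower and 8 overlapped. Of all genes, 6.7% lay higher in this way and 7.89% lower. Photoreceptor markers ranged from 44.4 to 1193 CPM in WT and from 22.2 to 573 CPM in the others. Their part in the values of *Tnfaip2* and *Relb* was not tested, and in bulk tissue fewer cells of a type and less RNA per cell cannot be told apart. Scaling by library size alone moved the median of all genes to -0.46, and with it *Nfkb1*, *Rel* and *Nfkbia* turned to -0.45, -0.29 and -0.24.

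Of the 116 pathway genes, 107 were tested in RPE/choroid and 0 were called by edgeR; 14 had an unadjusted p under 0.05, against 8.3% of all genes, and DESeq2 called *Ptges* and *Ccl5*, where it called 1.1% of all genes. Per length, *Rela* led the members in WT RPE/choroid at 2.19 ± 0.296 CPM per kilobase (SD, n = 3), with *Nfkbia* at 1.95 ± 0.431 and *Nfkb1* at 1.44 ± 0.21, and *Traf1* was again the lowest at 0.147 ± 0.048. Ranges overlapped between neighbours in this order except *Tnfaip2* with *Birc3* and *Relb* with *Traf1*.

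**Figure D5:**
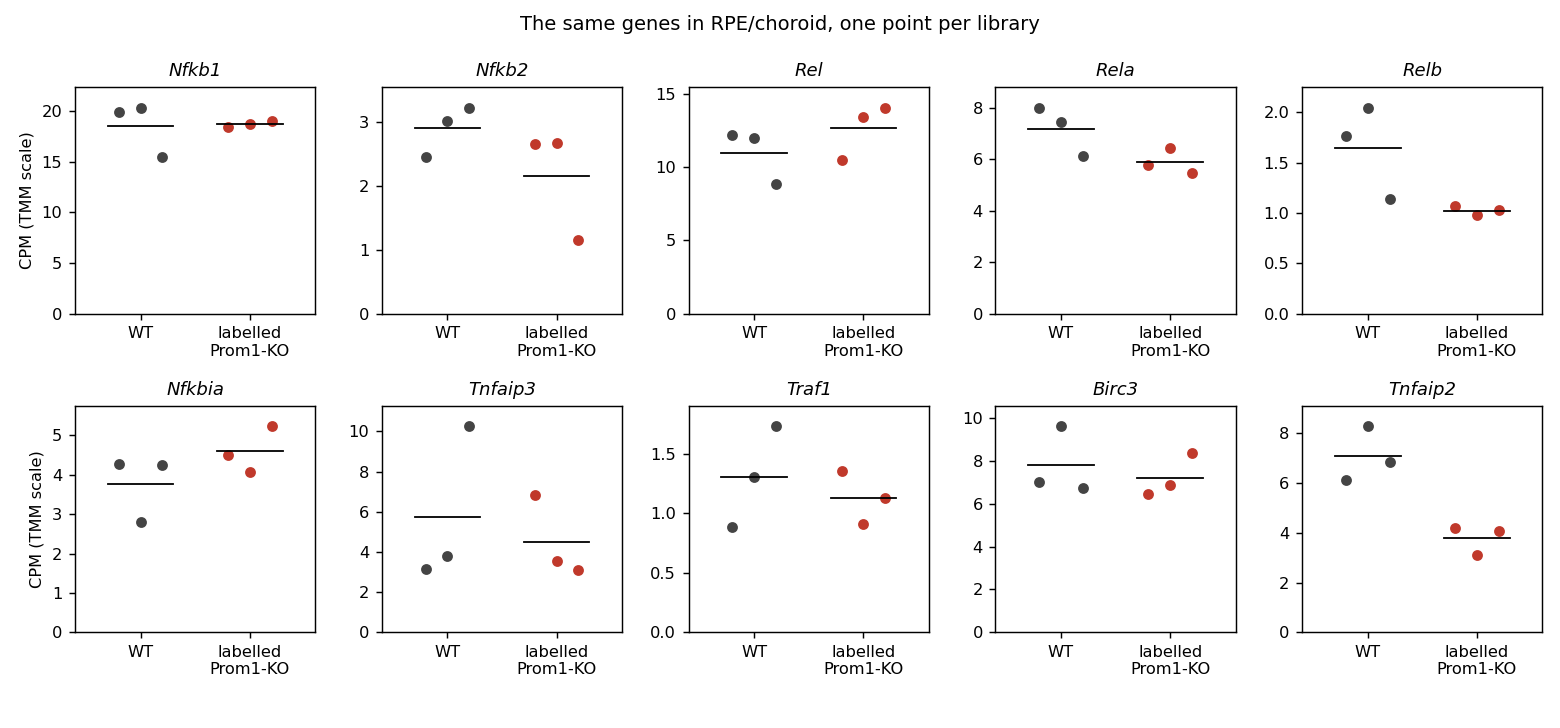
Level of each gene in CPM (linear axis from 0, scaled by TMM) in every RPE/choroid library, for WT mice (n = 3) and mice labelled *Prom1*-KO (n = 3); bars are group means. The groups do not overlap for *Tnfaip2* (6.12 to 8.29 against 3.10 to 4.19 CPM) and *Relb* (1.14 to 2.05 against 0.98 to 1.07 CPM).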

How the data were processed

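RNA-seq counts were analysed for 9 mRPE and 6 RPE/choroid libraries. Per the labels and methods, the authors trimmed the reads with Trim Galore 0.6.7, aligned them to mm39 with STAR, and deposited raw counts per gene and counts divided by DESeq2 size factors, which were not used here. The methods name a TruSeq stranded kit and the labels an NEB stranded kit, and how strand entered the counts is not given in the sources used here, so reads of overlapping antisense genes may not have been told apart.

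The edgeR 4.0.16 quasi-likelihood model (R 4.3.3, TMM scaling, a batch term for mRPE) was fitted to genes that reached 5 counts in 3 or more libraries, and p-values were adjusted by Benjamini-Hochberg over all of them. A call required both an adjusted p below 0.05 and a log2 fold change beyond 1.2 in either direction. KO22 was fitted with WT alone (7 libraries), and the other mRPE comparisons over 9 libraries. Standard errors are the log2 fold change over the square root of F. Levels are CPM on the TMM scale, per kilobase of GENCODE exon where said, and within-batch differences use a pseudocount of 0.5 CPM. Depth set the precision: *Traf1* had as few as 20 counts in a library.

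The members and lists were chosen with earlier results of these data known. The text names the 10 members, *Prom1*, the 2 called genes per direction with the smallest adjusted p of each pathway list in KO22, and the 3 genes most like a called member; genes outside this rule were named after their values were seen. The test was checked on counts simulated without a batch effect, with changes planted only in well-counted genes. Batch differences like those seen here were outside that check. Alternatives were DESeq2 1.42.0 (test and size factors), library size alone, other count filters, no batch term, batch 9262 alone, other library sets, no fold limit and each library left out.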

Additional observations from a re-analysis of the deposited data

Results flagged for a closer look

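Chance marks about 1 in 20 groups of this size by the distance of 1 library from the rest, and 10 groups were looked at, the members in WT mRPE. In 3 of them the WT library of batch 8995 lay far below the others: *Nfkb1* at 101.1 CPM, *Nfkbia* at 26.3 CPM and *Tnfaip3* at 29.1 CPM. The other WT libraries stood at 138 to 140, 40.4 to 42.2 and 54.1 to 55.1 CPM for these genes. All 3 marks fell on the same library, the only WT library of its batch. As described above, that library differed from the other WT libraries far more than those differed among themselves. The share of all genes marked in this way is not given, so the marks cannot be read as particular to these genes.

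The effects of the 2 *Prom1*-KO lines against the same WT cells differed for 4 members by the adjusted p of edgeR's test of KO22 against KO26. Of all genes 34.4% passed in the same way, so the count of members is near the share over all genes. The log2 difference was 2.91 for *Traf1*, 1.12 for *Nfkb1*, 0.68 for *Birc3* and 0.47 for *Rel*. *Traf1* and *Nfkb1* passed the adjusted p in all 17 alternatives to this fit, *Birc3* in 14 and *Rel* in 6, so that of *Rel* rests on the choice of fit. Since each knockout is 1 line, the difference cannot be told apart from any other difference between these lines.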

How the results depend on the processing

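Without the fold limit, 3 members were called in KO22 against WT, 4 in KO22 against KO26 and 3 between batches, where 1 each was called with it. With each library left out in turn, the count in KO22 against KO26 was 1 to 2, where *Nfkb1* joined without KO22 replicate 2, KO22 replicate 3 or KO26 replicate 2, and the count between batches was 0 to 2. *Traf1* stayed called in KO22 against WT in all 16 alternatives (log2 fold change 2.99 to 3.44) and in KO22 against KO26 in all 18 (2.74 to 3.18). In KO22 against WT, 5 members passed the adjusted p alone in batch 9262 alone, and also without the WT or the KO22 library of batch 8995. The 7 libraries gave 3, where 53% of all genes passed. Genes called with the fold limit rose in these fits as well, from 5154 to 5308, 5725 and 5594 in that order. Shares of all genes by the adjusted p alone are not given for them. In KO26 against WT, 2 members passed the adjusted p without KO22 replicate 1 or with the WT and KO26 libraries alone. These fits called 878 and 818 of all genes, against 399 in the fit over 9 libraries. In batch 9262 alone, which holds 1 KO26 library, *Tnfaip3* was higher by 0.64 on the log2 scale. In KO22 against KO26, where 4 passed, *Rel* lost the adjusted p in 11 of 17 alternatives (up to 0.166) and *Birc3* in 3 (up to 0.141). Over all members, called or not, the sign changed in 10 of 160 values for KO22 against WT and 13 of 180 for KO26 against WT. It changed in 14 of 180 for KO22 against KO26, 8 of 120 in RPE/choroid and 4 of 150 between batches. No change of sign was of a member called in either fit. *Tnfrsf11a* was called in 13 of 16 alternatives, not in batch 9262 alone nor without the WT or KO22 library of batch 8995, and *Tnfsf12* in 14 of 16, not without WT replicate 4 or KO22 replicate 2; *Il1a* passed the count filter in 12. Over all genes, KO26 against WT gave 399 calls, 629 by DESeq2, 681 in batch 9262 alone, 818 with the WT and KO26 libraries alone, 194 without the batch term and 725 without the fold limit. KO22 against WT gave 5154 and 10837 without the fold limit, KO22 against KO26 gave 3797, 7132 without the fold limit and 2336 with those libraries alone, and RPE/choroid gave 47, 88 by library size alone and 273 by DESeq2. Between batches 534 genes were called, and 1829 without the fold limit. The cause was not tested. No paired analysis was possible because the labels give the groups no shared replicate numbers, but the mRPE libraries share batch names across groups, and batch was a term in their fits.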
